A study of Mus musculus with 7 samples.

Results

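The genes described here are those of 7 mast cell granule proteases and of Kit, the receptor that mast cells need for survival. They are Mcpt1, Mcpt2 and Cma2, Mcpt4 and Cma1, Tpsb2, Cpa3, and Kit. They were taken by symbol from the platform annotation, and make up 8 of the 8251 genes with a probe set of a single symbol on the array. The choice was made with their signals in these samples known, so every level and difference of the 8 genes below is a description without a test. The 8 genes have 13 probe sets with 1 symbol, and a further probe set is annotated to both Cma2 and Mcpt9.

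The study followed colitis that was set off with TNBS (trinitrobenzene sulphonic acid) enemas, an agent that alters and thereby makes colon proteins visible to the immune system, and measured colon RNA on Affymetrix oligonucleotide arrays. TNBS was given in ethanol and the controls received saline, with no group given ethanol alone, so TNBS and ethanol cannot be told apart. All animals were female CD-1 mice, an outbred stock, 10 to 12 weeks old at the start, and the tissue lay 4 ± 0.5 cm above the anus. The question was how the transcripts of the colon differ in active colitis and in the weeks after the enemas end.

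TNBS-w6 was RNA pooled from 6 mice taken 3 days after the last of 6 TNBS enemas. TNBS-w8 pooled 4 mice at 2 weeks after the enemas, TNBS-w10 pooled 5 mice at 4 weeks, and TNBS-w12 pooled 4 mice at 6 weeks. Saline-w6 pooled 5 saline mice of week 6 and was read on 2 arrays. Saline-w10 pooled 4 saline mice, 2 of week 8 and 2 of week 10. The 7 arrays thus stand for 6 pools, no group has a repeat pool, and the spread between mice was not measured. Following the series' design, TNBS-w6 was set against Saline-w6, and the 3 later TNBS pools against Saline-w10, which they share. TNBS-w12 has no control of its own age.

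Mast cells store proteases in their granules bound to the proteoglycan serglycin and release them when IgE receptors or other triggers fire. Rodent mast cells are grouped into mucosal mast cells, which lie in the epithelium and lamina propria of the gut and expand in worm infection, and connective tissue mast cells, which lie in skin, submucosa and serosa. In the mouse, the mucosal type stores the chymases encoded by Mcpt1 and Mcpt2. The connective tissue type stores the chymases of Mcpt4 and Cma1, the tryptase of Tpsb2 and the carboxypeptidase of Cpa3. Kit marks mast cells of either type, and in the gut wall also the interstitial cells of Cajal, the pacemaker cells of the muscle.

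Levels are signal intensities as the authors scaled them. Differences are on a log2 scale on which 50 is the lowest signal allowed (lower ones count as 50), and a gene entered the counts if its highest pool reached 100, which held for 4316 genes. A gene was counted as higher or lower at 2-fold. The only measure of error is the pair of Saline-w6 arrays, which share 1 RNA pool: the fold within which 95% of probe sets agreed was 6.07 for signals under 25, 2.86 for 25 to 50, 1.83 for 50 to 100, 1.59 for 100 to 200, 1.41 for 200 to 500 and 1.31 above. Differences of the 8 genes, and 2-fold differences of other genes, are set beside the value of the class in which the lower signal falls. These folds cover array and labelling error, not differences between mice. Median signals were 51.8 to 61.2 over the 7 arrays. The 3' to 5' ratio of beta-actin, a sign of RNA integrity, was 1.14 to 1.24 on the week 6 arrays and 0.798 to 0.818 on the later ones, so that it differs by week and is alike within each comparison. The course over the TNBS pools, the shares of TNBS-w6 left and every ranking or likeness over the 6 pools cross this break. Its part in them was not tested. Colon epithelium and muscle genes were well measured: 12 of 13 colon tissue genes and 7 of 7 smooth muscle genes passed the filter, and the keratin genes Krt8 and Krt19 read at least 3821 on every array.

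The sequence just upstream of a gene is where factors that switch it on in a cell type bind, and the RefSeq promoter table (GRCm38.p6) holds it for 5 of the 8 genes, Mcpt1, Mcpt4, Cma1, Cpa3 and Kit. Mcpt2, Cma2 and Tpsb2 had no entry. The 250 bases before the annotated start are shown for Mcpt1, the mucosal chymase with the widest range of signal, for Mcpt4, its connective tissue relative, and for Cpa3, a protease of another family. The last 2 were chosen after their values were seen. Sequences run 5' to 3' on the strand of the gene. Capitals mark exact matches, on either strand, to TGATAA or AGATAA (bound by GATA factors), TGTGGT (bound by RUNX factors) and TATAAA (the TATA box).
Mcpt1, chr14:56017714-56017963, plus strand: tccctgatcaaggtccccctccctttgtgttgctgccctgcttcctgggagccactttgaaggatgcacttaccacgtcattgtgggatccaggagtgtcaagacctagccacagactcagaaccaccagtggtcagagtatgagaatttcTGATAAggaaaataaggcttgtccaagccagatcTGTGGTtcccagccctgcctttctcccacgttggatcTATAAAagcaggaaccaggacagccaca
Mcpt4, chr14:56062311-56062560, minus strand: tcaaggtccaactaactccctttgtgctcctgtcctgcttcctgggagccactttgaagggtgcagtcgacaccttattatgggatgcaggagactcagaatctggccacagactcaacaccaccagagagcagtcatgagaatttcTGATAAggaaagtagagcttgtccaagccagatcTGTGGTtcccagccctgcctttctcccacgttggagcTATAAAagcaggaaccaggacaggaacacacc
Cpa3, chr3:20242182-20242431, minus strand: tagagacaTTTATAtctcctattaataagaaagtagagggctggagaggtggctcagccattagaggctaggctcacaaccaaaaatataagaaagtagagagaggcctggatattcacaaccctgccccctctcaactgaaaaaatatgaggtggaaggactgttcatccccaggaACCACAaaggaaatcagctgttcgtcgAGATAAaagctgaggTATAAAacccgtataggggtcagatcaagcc

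Mcpt1 and Mcpt4 had the same 3 motifs in the same order. TGATAA began 99 bases upstream of the start in Mcpt1 and 103 in Mcpt4, TGTGGT 65 and 69, and TATAAA 28 and 32. Both windows aligned with 213 identical bases over 260 columns (81.9%), against 51.3% for Mcpt1 and Cma1 and 48.1% for Mcpt1 and Cpa3. Cpa3 held AGATAA 46 bases upstream, the reverse complement of TGTGGT 73 bases upstream and TATAAA 31 bases upstream, with its reverse complement at 242. The windows of Cma1 and Kit held none of these 4 motifs. Cma1 held 1 match and Cpa3 2 matches to CANNTG, the E-box bound by factors such as MITF, and its stricter form CATGTG was in none of the 5 windows. Of 32851 windows of this length, 7.94% held TGATAA, 9.99% AGATAA, 14.05% TGTGGT, 12.4% TATAAA, 66.2% CANNTG and 12.3% CATGTG. A match describes the letters and shows no binding. The closely alike windows of Mcpt1 and Mcpt4 belong to a gene with wide differences between pools and to one that stayed at the lower end of the array.

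The 3 chymase genes Mcpt1, Mcpt2 and Cma2 had the same course by their main probe sets: highest in TNBS-w6, lower in TNBS-w8, lower again in TNBS-w10, and in TNBS-w12 below every saline array. At least 2-fold higher signals than in the saline control were counted for 3 of the 5 genes that passed the filter (these 3, with Tpsb2 and Kit as the others) in TNBS-w6, in TNBS-w8 and in TNBS-w10, and for 0 of 5 in TNBS-w12. Over all 4316 genes the share at least 2-fold higher was 2.55% in TNBS-w6, 1.53% in TNBS-w8, 0.834% in TNBS-w10 and 0.718% in TNBS-w12. The genes were chosen from these contrasts, so nothing is read from the counts against those shares. The median log2 difference of the 5 genes was 1.79, 2.27, 1.14 and -0.56 from the earliest to the latest comparison, beside -0.02, -0.07, 0.00 and 0 for all genes. In the first 3 comparisons this median was the value of Cma2, and in the last that of Mcpt1. The 5 genes did not move as a set. Tpsb2 stood at 0.56, -0.78, -0.70 and -1.07 by time, and Kit at -0.53, -0.21, 0.11 and 0.06. Mcpt4, Cma1 and Cpa3 did not pass the filter and are not in the median. In pooled bulk tissue, a different number of mast cells and a different amount of RNA per cell cannot be told apart.

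**Figure D1:**
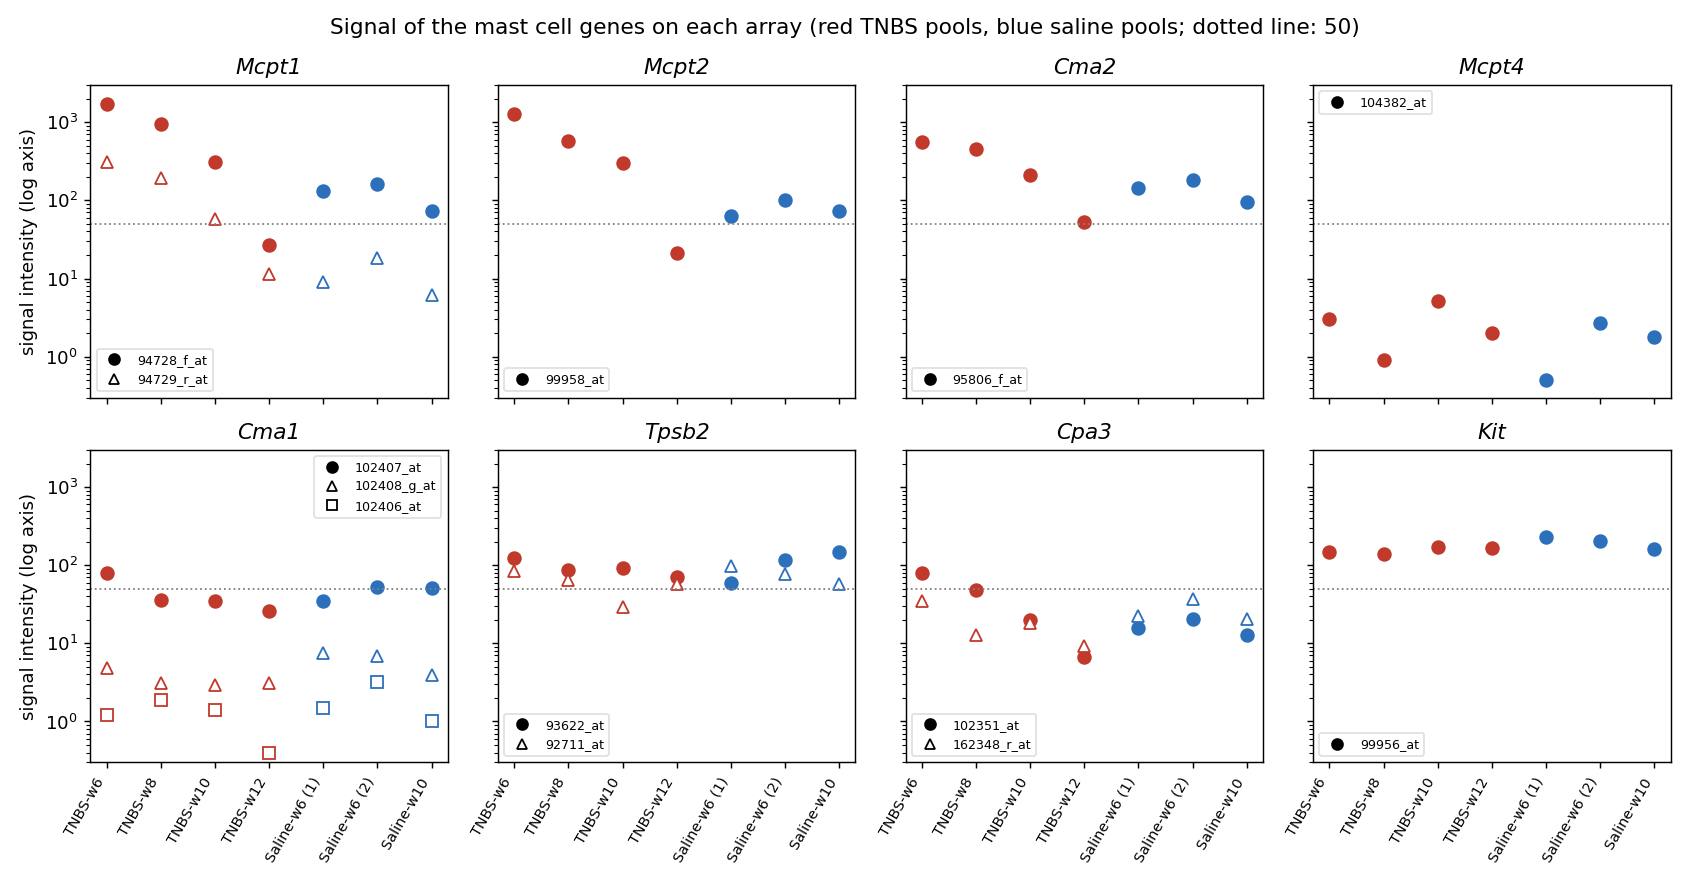
Signal intensity (log axis) of every probe set of the 8 genes on each of the 7 arrays, with TNBS pools in red, saline pools in blue and a dotted line at 50. Mcpt1, Mcpt2 and Cma2 step down across the 4 TNBS pools to signals below those of the saline arrays by their main probe sets (filled circles), Mcpt4 never exceeds 5.2, and Kit lies between 137.4 and 227.2 throughout.

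Mcpt1 encodes a chymotrypsin-like protease that mucosal mast cells release into the gut lumen and blood, and that is used as a serum marker of their activation. Its main probe set (94728_f_at) read 1712.3 in TNBS-w6, 955.4 in TNBS-w8, 310.2 in TNBS-w10 and 27.0 in TNBS-w12, against 133.2 and 160.1 on the Saline-w6 arrays and 73.9 in Saline-w10. The first 3 TNBS pools lay above all saline arrays and TNBS-w12 below all of them. The signal was 11.7-fold higher in TNBS-w6, 12.9-fold higher in TNBS-w8 and 4.20-fold higher in TNBS-w10 than in the matched saline pool, each beyond the 1.59-fold or 1.83-fold of the repeat arrays. In TNBS-w12 it was at least 1.48-fold lower with the floor of 50 and 2.74-fold lower as deposited, inside the 2.86-fold of the repeat arrays at such low signals. As a share of TNBS-w6, 55.8% was left in TNBS-w8, 18.1% in TNBS-w10 and 1.58% in TNBS-w12.

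A second Mcpt1 probe set (94729_r_at, whose suffix marks probes that broke the design rules) read 309.4, 192.4, 56.9 and 11.5 in the TNBS pools in order of time, against 8.9 and 18.2 on the Saline-w6 arrays and 6.2 in Saline-w10. It gave the same order among TNBS pools with 62.2%, 18.4% and 3.72% of TNBS-w6 left. Its TNBS-w12 signal lay within the range of the saline arrays and not below them. The letter f in the name of the main probe set marks probes that may bind relatives within a gene family, so part of its signal may come from other chymase RNA, which was not tested.

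Mcpt2 encodes a second product of mucosal mast cells, built like a chymase and with little known proteolytic activity. Its single probe set (99958_at), which carries no such mark, read 1291.8 in TNBS-w6, 575.1 in TNBS-w8, 301.7 in TNBS-w10 and 21.4 in TNBS-w12, against 63.9 and 101.8 on the Saline-w6 arrays and 72.2 in Saline-w10. Here too the first 3 TNBS pools lay above all saline arrays and the last below all. It was 16.0-fold higher in TNBS-w6, 7.97-fold in TNBS-w8 and 4.18-fold in TNBS-w10, beyond the 1.83-fold of the repeat arrays. The TNBS-w12 signal was 3.37-fold lower than in Saline-w10 as deposited, where the repeat arrays agree only within 6.07-fold. No saline pool reached 100 (80.7 in Saline-w6, averaged, and 72.2 in Saline-w10), so Mcpt2 passed the filter through the TNBS pools.

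Cma2 is annotated as a second chymase gene beside Cma1. Its probe set (95806_f_at) read 562.2 in TNBS-w6, 456.0 in TNBS-w8, 209.1 in TNBS-w10 and 52.7 in TNBS-w12, against 145.3 and 182.0 on the Saline-w6 arrays and 94.6 in Saline-w10. It had the smallest range of the 3 genes, and kept 81.1%, 37.2% and 9.37% of its TNBS-w6 signal at the later times. It was 3.46-fold higher in TNBS-w6, 4.82-fold in TNBS-w8 and 2.21-fold in TNBS-w10, and 1.80-fold lower in TNBS-w12, just inside the 1.83-fold of the repeat arrays. The probe set shared with Mcpt9 (94735_s_at), a chymase gene known from the uterus, was not counted to either gene. It read 507.4, 368.9, 159.4 and 23.0 in the TNBS pools by time, against 134.9 and 118.0 on the Saline-w6 arrays and 68.2 in Saline-w10, the same order as Mcpt1 and Cma2 among the TNBS pools. Both names carry a mark (f or s) of probes that may bind RNA of related genes, and how much of either signal comes from Mcpt1 or Mcpt2 RNA was not tested.

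Ranked by signal of the main probe sets, the 6 pools stood in 1 order for all 3 genes: TNBS-w6, TNBS-w8, TNBS-w10, Saline-w6, Saline-w10, TNBS-w12. For Mcpt1 each neighbour differed by more than the repeat arrays, apart from Saline-w10 and TNBS-w12. The second Mcpt1 probe set placed TNBS-w12 above Saline-w10. Its step from TNBS-w10 to Saline-w6 (4.47-fold) lay inside the 6.07-fold of the repeat arrays. For Mcpt2 both saline pools differed only 1.12-fold, and Saline-w10 and TNBS-w12 were not told apart. For Cma2 only TNBS-w8 and TNBS-w10 differed beyond that measure (2.18-fold). TNBS-w6 and TNBS-w8 differed 1.23-fold, and TNBS-w10 exceeded Saline-w6 by 1.29-fold. Without TNBS, Saline-w10 was also lower than Saline-w6, by 1.98-fold for Mcpt1 and 1.72-fold for Cma2. Of the 5 genes 0 differed 2-fold between the saline pools, beside 0.857% of all genes that were higher and 0.95% that were lower in Saline-w10. Against Saline-w6, the log2 difference in TNBS-w10 was 1.09 for Mcpt1 and 0.36 for Cma2, in place of 2.07 and 1.14 against Saline-w10. In TNBS-w12 it was -1.55 for Mcpt1 and -1.63 for Cma2, in place of -0.56 and -0.84. Among all 4316 genes, 5.03% had signals that descended over the 4 TNBS pools and 1.32% did so with TNBS-w12 at least 2-fold below TNBS-w6, which 3 of the 5 genes did.

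**Figure D2:**
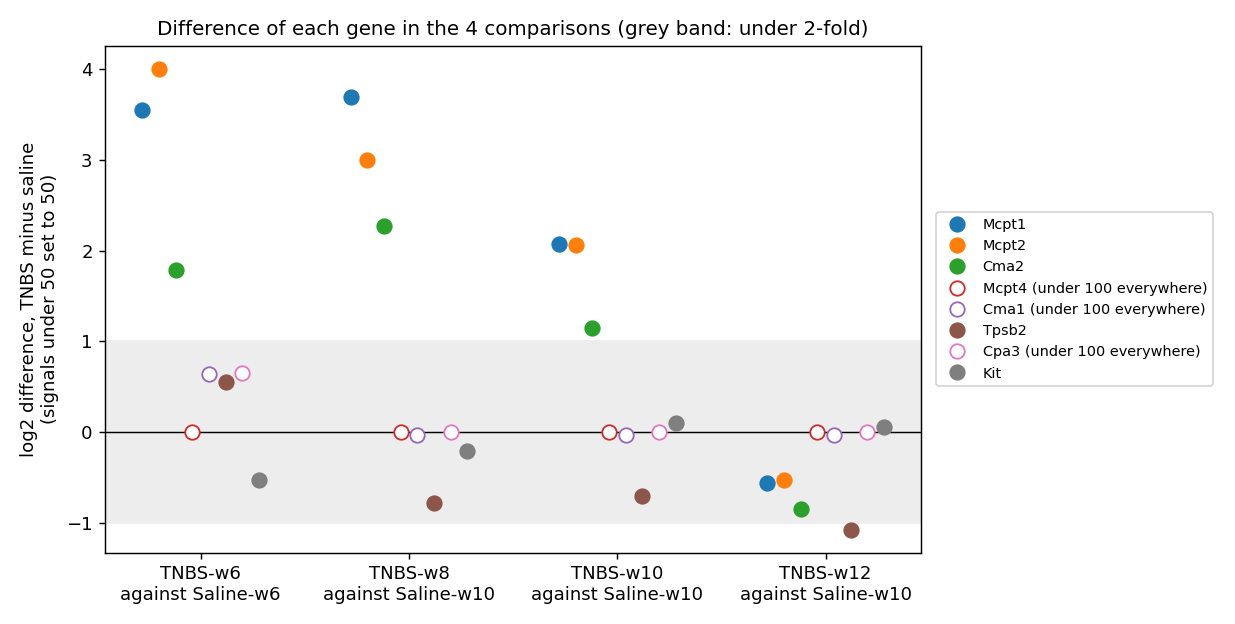
Log2 difference of each gene, TNBS pool minus its saline pool with signals under 50 set to 50, in the 4 comparisons, with the band under 2-fold in grey and open circles for genes that stayed under 100 in every pool. Mcpt1, Mcpt2 and Cma2 lie above the band in the first 3 comparisons and between -0.84 and -0.53 in TNBS-w12, where Tpsb2 lies at -1.07.

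The chymase genes of the connective tissue type gave low signals throughout. Mcpt4 encodes the main chymotrypsin-like chymase of skin and peritoneal mast cells. Its probe set (104382_at) read 3.0, 0.9, 5.2 and 2.0 in the TNBS pools by time, against 0.5 and 2.7 on the Saline-w6 arrays and 1.8 in Saline-w10. All 7 values are far under 50, where the array gives no usable difference. A low signal shows that this probe set reported little, not that the RNA was missing.

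Cma1 encodes the remaining connective tissue chymase, which in rodents cleaves like an elastase. Its brightest probe set (102407_at) read 80.5, 35.6, 35.2 and 26.3 in the TNBS pools by time, against 35.0 and 53.2 on the Saline-w6 arrays and 50.9 in Saline-w10. TNBS-w6 was highest, by 1.87-fold over the Saline-w6 mean as deposited, inside the 2.86-fold of the repeat arrays, and the 3 later TNBS pools lay at the low end of the saline arrays' range or below it. The order of the TNBS pools was that of Mcpt1, Mcpt2 and Cma2, with TNBS-w12 below every saline array, but no neighbouring pools differed beyond the repeat arrays. Its other probe sets stayed between 2.9 and 7.5 (102408_g_at) and between 0.4 and 3.2 (102406_at).

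Along chromosome 14 the chymase genes sit in a cluster with cathepsin G and the granzymes of cytotoxic cells. The RefSeq order of protein-coding genes is Cma1, Cma2, Mcpt1, Mcpt2, Mcpt9, Mcpt4, Mcpt8, Ctsg and then Gzme, Gzmd, Gzmg, Gzmn, Gzmf, Gzmc and Gzmb. Of these 15 genes 12 had a probe set of their own. A signal of 100 was reached on some array by 3 genes, Cma2, Mcpt1 and Mcpt2, which are direct neighbours, with the limit on the probe sets of Cma2 and Mcpt1 given above. The other 9 stayed under 100 everywhere, with 80.5 for Cma1 as the highest. Of all 8251 genes, 4316 reached 100 in a pool. The 3 genes were chosen with their signals known, so nothing is read from this count or from their place side by side. Mcpt8, a protease of basophils, read at most 25.8, Ctsg, a protease of neutrophils and some mast cells, at most 2.2, and Gzmb, a granzyme of cytotoxic lymphocytes that mast cells can also make, 65.1 in its highest array.

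**Figure D3:**
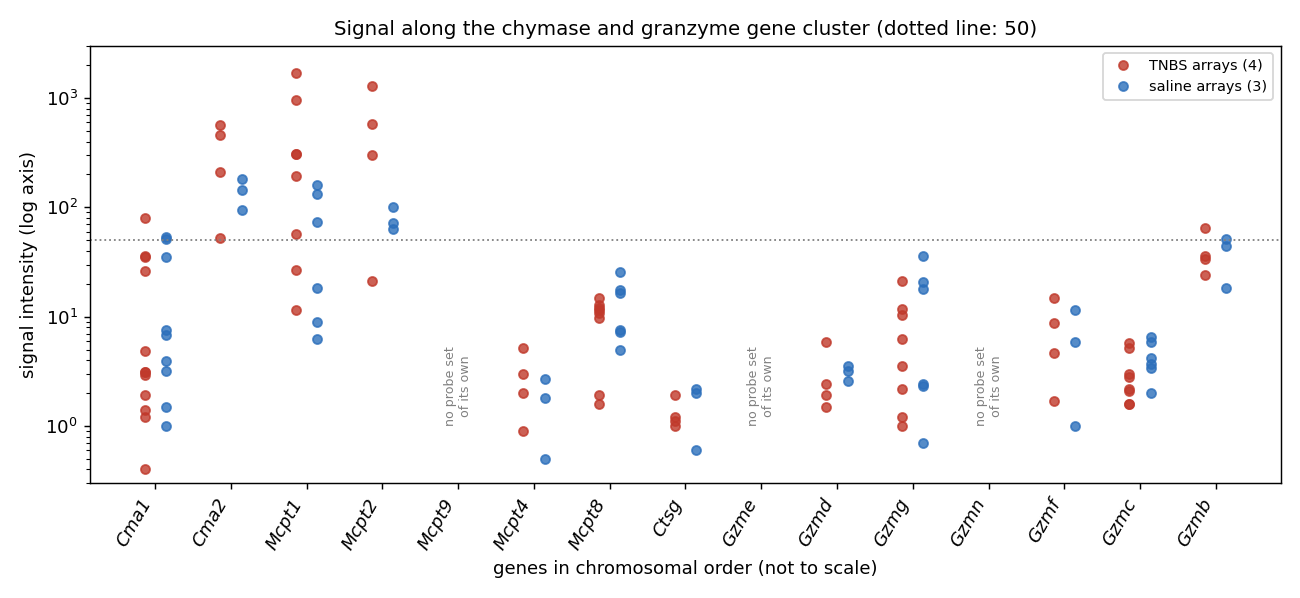
Signal (log axis) of the probe sets of each gene of the chromosome 14 cluster in chromosomal order, evenly spaced and not to scale, with the 4 TNBS arrays in red to the left of the 3 saline arrays in blue. Only Cma2, Mcpt1 and Mcpt2, side by side and chosen with their signals known, have signals of 100 or more. Levels of different probe sets are not on a common scale.

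Tpsb2 encodes the tryptase that assembles into heparin-bound tetramers. Its main probe set (93622_at) read 122.6, 86.3, 91.0 and 70.4 in the TNBS pools by time, against 59.9 and 115.8 on the Saline-w6 arrays and 148.1 in Saline-w10. The 2 arrays of the Saline-w6 pool alone differed 1.93-fold, so the ranges overlap and the 1.47-fold higher signal in TNBS-w6 cannot be told from array error. In TNBS-w12 it was 2.10-fold lower than in Saline-w10, the 1 of 5 genes counted as lower there, beside 0.88% of all genes. In the 3 earlier comparisons 0 of 5 genes were 2-fold lower, beside 0.996%, 1.76% and 0.649% of all genes. The second Tpsb2 probe set (92711_at) read 84.3, 64.4, 29.3 and 58.1 in the TNBS pools, against 97.5 and 77.4 on the Saline-w6 arrays and 57.4 in Saline-w10. In TNBS-w12 it stood at a log2 difference of 0.02, so the probe sets disagree on the lower tryptase signal.

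Cpa3 encodes carboxypeptidase A3, which trims peptides and is stored together with Cma1 product in connective tissue mast cells. It did not reach 100 in any pool. Its brighter probe set (102351_at) read 78.6, 47.6, 20.1 and 6.6 in the TNBS pools by time, against 15.6 and 20.3 on the Saline-w6 arrays and 12.8 in Saline-w10. These signals descend in the same order as those of the mucosal chymases, with TNBS-w6 and TNBS-w8 above all saline arrays. As deposited, it was 4.42-fold higher in TNBS-w6 and 3.72-fold higher in TNBS-w8, but at such signals the repeat arrays agree only within 6.07-fold. The second probe set (162348_r_at) read 34.7, 12.6, 18.1 and 9.2 in the TNBS pools, against 22.3 and 36.4 on the Saline-w6 arrays and 20.6 in Saline-w10, and did not follow that order.

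Kit encodes the receptor tyrosine kinase for stem cell factor. Its probe set (99956_at) read 148.7, 137.4, 170.9 and 165.2 in the TNBS pools by time, against 227.2 and 203.3 on the Saline-w6 arrays and 158.8 in Saline-w10. Saline-w6 was highest, and the 4 TNBS pools lay on both sides of Saline-w10. The log2 difference was -0.53 in TNBS-w6, 1.45-fold lower and inside the 1.59-fold of the repeat arrays, and -0.21, 0.11 and 0.06 in the later comparisons. Saline-w6 exceeded Saline-w10 by 1.35-fold, so the week 6 difference is of about the size of that between both saline pools. Kitl, which encodes stem cell factor, read 436.1, 577.4, 622.8 and 600.1 in the TNBS pools by time, against 448.7 and 456.7 on the Saline-w6 arrays and 529.2 in Saline-w10, with log2 differences of -0.05, 0.13, 0.23 and 0.18.

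Interstitial cells of Cajal also carry Kit, and the list drawn up for them and other Kit cells gave no measure of them. Of its 6 genes on the array 2 passed the filter, and neither is made by these cells: Kitl comes from the cells around them, and Pdgfra is a receptor of fibroblast-like cells of the gut wall. Pdgfra had log2 differences of 0.04, 0.05, -0.20 and 0.21 by time. The muscle layer was in the samples: the sum of 7 smooth muscle genes was 11514 to 17749 in the TNBS pools and 14124 to 15158 on the saline arrays, highest in TNBS-w8 and lowest in TNBS-w12. The sum of 13 colon tissue genes was 29386 to 43384 in the TNBS pools and 32487 to 36996 on the saline arrays, with the same pools at the ends. In TNBS-w6, where Mcpt1, Mcpt2 and Cma2 were highest, 2 of the 12 colon tissue genes past the filter were at least 2-fold lower (0.996% of all genes were). Of the 12, 3 lay above 0, and the share of all genes above 0 was not counted. Their median log2 difference was -0.21, beside -0.02 for all genes, with Krt8 at -0.03 and Krt19 at -0.05. Car4, a carbonic anhydrase of surface colonocytes, read 1201.1 there, against 2559.6 and 2300.3 on the Saline-w6 arrays, 2.02-fold lower (repeat arrays 1.31-fold). Fabp2, an epithelial fatty acid carrier, read 241.2, against 539.0 and 538.6, 2.23-fold lower (repeat arrays 1.41-fold). Cd53, a surface protein of leukocytes in general, read 382.5, 284.5, 240.5 and 282.0 in the TNBS pools by time, against 153.2 and 78.5 on the Saline-w6 arrays and 108.3 in Saline-w10. Cd53 was 3.49-fold, 2.63-fold, 2.22-fold and 2.60-fold higher in the 4 comparisons (repeat arrays 1.59-fold), TNBS-w12 included. Its own Saline-w6 arrays differed by more than 1.59-fold, and the later comparisons share the single Saline-w10 value. Cd53 is 1 gene and does not stand for leukocytes as a whole. The list of mast cell receptors and signalling, described below, had 5 genes past the filter. In TNBS-w12 they stood at log2 differences of -0.25 (Lat), 0.10 (Lat2), 0.05 (Syk), -0.29 (Btk) and -0.07 (Cd63). The part of tissue composition in the protease signals was not tested.

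Other genes of mast cell biology were drawn up in 5 lists: receptors and signalling, granule and mediator synthesis, transcription factors, growth factors with type 2 cytokines, and TGF-beta activation with mucosal homing. They name 86 genes, of which 64 were on the array and 23 passed the filter, as 4316 of all 8251 genes did. Under 50 on all arrays lay 27 of the 64, and the share of all genes that did was not counted. At least 2-fold differences were counted for 2 genes higher and 0 lower in TNBS-w6 (3.54% of all genes differed either way), and for 1 higher and 2 lower in TNBS-w8 (3.29%). In TNBS-w10 (1.48%) and in TNBS-w12 (1.6%) 0 genes did. The median log2 differences of the 23 genes were 0.13, -0.04, 0.15 and 0.00 by time, beside -0.02, -0.07, 0.00 and 0 for all genes.

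**Figure D4:**
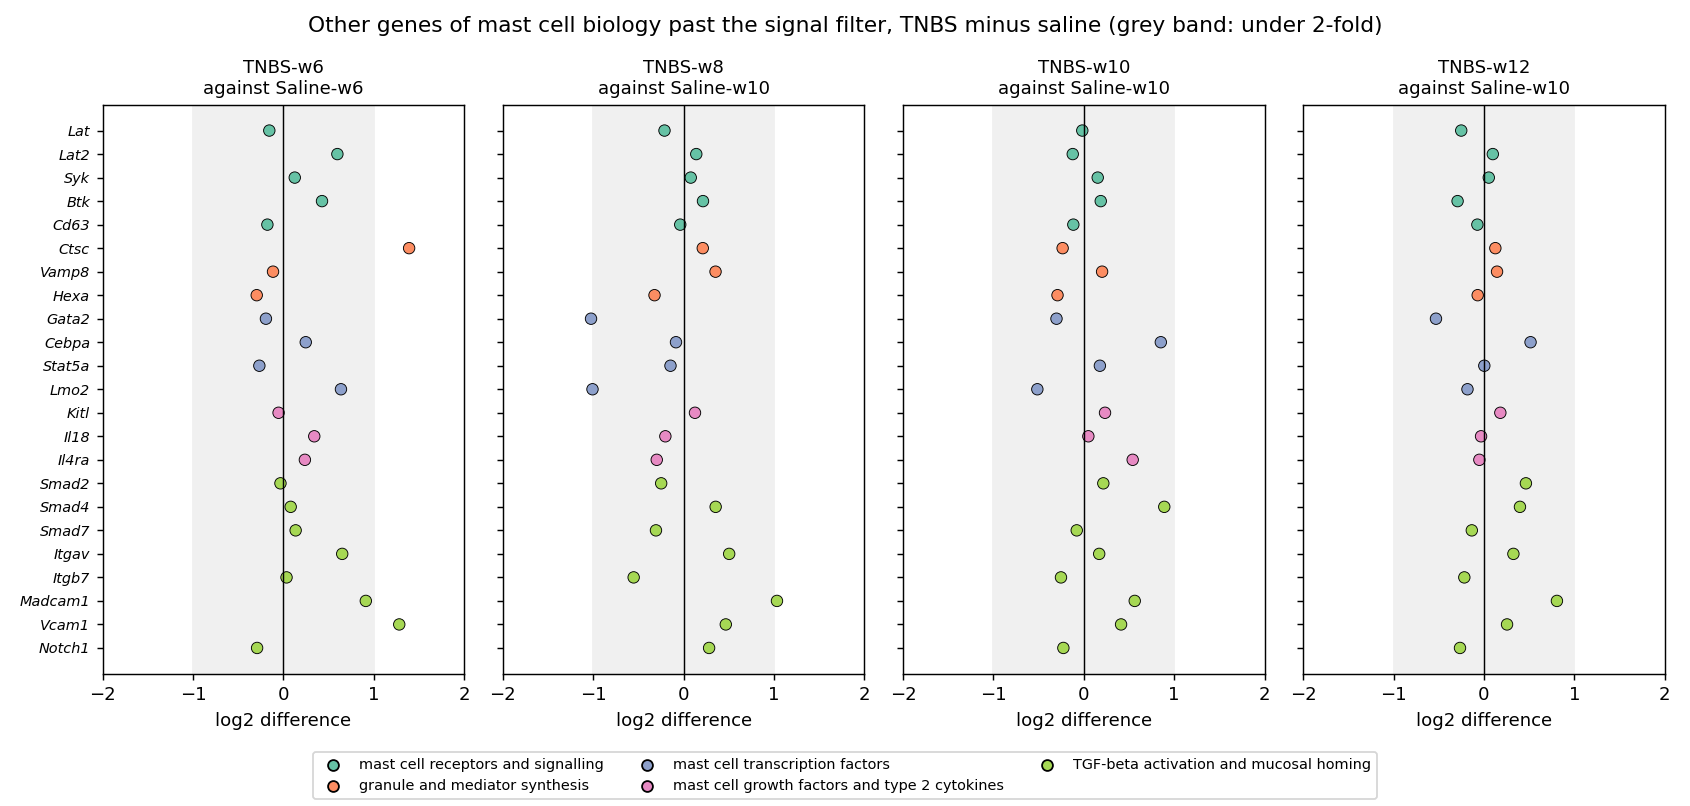
Log2 difference, TNBS pool minus its saline pool, of the 23 genes of 5 mast cell lists that passed the signal filter, with a panel for each comparison and the band under 2-fold in grey. Ctsc and Vcam1 lie beyond the band in TNBS-w6, Madcam1, Gata2 and Lmo2 just beyond it in TNBS-w8, and no gene in the last 2 panels.

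Ctsc encodes cathepsin C, the dipeptidyl peptidase that cuts the activation peptide from chymases and other granule serine proteases. It read 297.9, 150.8, 110.7 and 142.1 in the TNBS pools by time, against 103.5 and 124.8 on the Saline-w6 arrays and 130.2 in Saline-w10. It was 2.62-fold higher in TNBS-w6, beyond the 1.59-fold of the repeat arrays, and within 1.18-fold of Saline-w10 in the later pools. Its other 2 probe sets stayed at or under 25.1 on all arrays. Ctsc is also made by neutrophils and macrophages, and is no marker of mast cells.

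Among the homing genes, Vcam1, the endothelial adhesion molecule that binds alpha-4 integrins on mast cell progenitors, read 155.6, 97.7, 94.1 and 84.4 in the TNBS pools by time, against 76.2 and 53.8 on the Saline-w6 arrays and 70.7 in Saline-w10. It was 2.43-fold higher in TNBS-w6 (repeat arrays 1.83-fold), and its other 2 probe sets were not: 1 read 78.1 in TNBS-w6, against 75.3 and 78.0 on the Saline-w6 arrays, and the other stayed under 50. Madcam1, the gut vessel address molecule for alpha-4 beta-7 integrin, read 123.7, 102.3, 73.9 and 87.5 in the TNBS pools, against 67.4 and 64.2 on the Saline-w6 arrays and 40.5 in Saline-w10. It was at least 2.05-fold higher in TNBS-w8, with Saline-w10 under the floor, and 2.53-fold higher as deposited, inside the 2.86-fold of the repeat arrays. Its second probe set read 63.3 in TNBS-w8 and 62.7 in Saline-w10. Itgb7, which encodes the beta-7 chain, read 105.4 to 154.6 on all arrays, with log2 differences of 0.03, -0.55, -0.25 and -0.22. Itgae, which encodes the integrin chain of mast cells and T cells inside the epithelium, stayed under 50 everywhere.

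Of the transcription factors of mast cells, Gata2 read 104.1, 41.9, 82.5 and 70.4 in the TNBS pools by time, against 114.7 and 123.6 on the Saline-w6 arrays and 101.7 in Saline-w10. Its TNBS-w8 signal was the lowest of the 7, at least 2.03-fold lower than in Saline-w10 and 2.43-fold lower as deposited, inside the 2.86-fold of the repeat arrays. Lmo2, a partner of GATA factors in blood cells, was 2.01-fold lower in TNBS-w8 (repeat arrays 1.83-fold), with 80.5 there, against 161.9 in Saline-w10. Mitf, which drives mast cell genes downstream of Kit, stayed between 5.8 and 26.0.

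The genes that define mast cells beyond their proteases were close to the lower end of the array. The subunits of the high-affinity IgE receptor read 3.5 to 24.3 (Fcer1a), 1.9 to 26.1 (Ms4a2) and 2.0 to 12.9 (the brighter probe set of Fcer1g). Hdc, the enzyme that makes histamine, read 26.7, 5.8, 16.6 and 15.2 in the TNBS pools by time, against 2.5 and 3.5 on the Saline-w6 arrays and 4.4 in Saline-w10, all under 50. Srgn, the serglycin core protein of granules in many blood cells, read 93.6, 57.7, 31.5 and 32.2 in the TNBS pools, against 55.7 and 37.5 on the Saline-w6 arrays and 30.4 in Saline-w10. Of 12 genes of basophils, eosinophils and other granule proteases on the array, 10 stayed under 50 on every array and 0 reached 100. Over all genes, 4316 of 8251 reached 100 in a pool, and 45.4% to 49.2% of probe sets lay under 50 on a given array. The share under 50 on every array was not counted, so the 10 of 12 says nothing about these cells. Their sum was 121.6 to 246.3 in the TNBS pools and 198.8 to 238.7 on the saline arrays.

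In cultured mouse mast cells, TGF-beta 1 and interleukin 9 are known to bring out Mcpt1 and Mcpt2. Tgfb1 read 2.9 to 8.3 on all arrays, which leaves its level unmeasured. Il9 read 62.1, 26.9, 14.3 and 31.2 in the TNBS pools by time, against 37.1 and 8.0 on the Saline-w6 arrays and 24.2 in Saline-w10, so that only TNBS-w6 passed 50. Il4 and Il13, the cytokines of type 2 immunity, stayed under 50 on every array, at no more than 22.2 and 8.0. Smad4, the shared partner of TGF-beta signalling, read 517.4, 527.0, 764.1 and 543.3 in the TNBS pools, against 465.5 and 514.7 on the Saline-w6 arrays and 412.2 in Saline-w10, with a largest log2 difference of 0.89 in TNBS-w10. From the same list, Smad2 stood at -0.03, -0.25, 0.22 and 0.46 by time, and Smad7 at 0.13, -0.31, -0.08 and -0.13. Smad3, Tgfbr1 and Tgfbr2 stayed under 50 on every array.

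Inhibitors of serine proteases form the other side of protease action. Of 12 such genes on the array 7 passed the filter, and 2 of the 7 were at least 2-fold higher in TNBS-w6 (2.55% of all genes were). In the later comparisons 0 of the 7 were, beside 1.53%, 0.834% and 0.718% of all genes by time. With 7 genes, such shares leave few or 0 to be counted. Slpi, a secreted inhibitor of elastase and cathepsin G, read 1310.9 in TNBS-w6, against 527.9 and 467.8 on the Saline-w6 arrays, 2.64-fold higher (repeat arrays 1.41-fold). In the later pools it read 348.7, 423.2 and 560.3, against 400.2 in Saline-w10. Wfdc18, a secreted protein with the same type of fold, read 678.8 in TNBS-w6, against 115.6 and 221.3 on the Saline-w6 arrays, 4.24-fold higher (repeat arrays 1.59-fold). Both inhibitor genes stood above saline 2-fold in the earliest pool alone, while Mcpt1 and Mcpt2 were still at least 4-fold higher in TNBS-w10.

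Over the 6 pools, the genes with log2 signals most like those of Mcpt1 among 914 candidates were Cma2 (Pearson r = 0.985), Mcpt2 (0.984), Col5a2 (0.965), Tmsb4x (0.942) and Ly6e (0.942). Cma2 and Mcpt2 were chosen together with Mcpt1 for this pattern, so nothing is read from their place at the top. The probe sets of Mcpt1 and Cma2 both carry the f mark, and the part of shared RNA in their likeness was not tested. Col5a2 encodes a chain of type V collagen, Tmsb4x an actin-binding peptide and Ly6e a small membrane protein. Col5a2 read 562.8, 398.4, 295.7 and 225.1 in the TNBS pools by time, against 263.4 and 224.7 on the Saline-w6 arrays and 208.4 in Saline-w10. Tmsb4x and Ly6e were highest in TNBS-w8 and lowest in TNBS-w12. Tpsb2 had r = 0.187 with Mcpt1 by its main probe set, whose Saline-w6 arrays alone differed 1.93-fold. No neighbouring pools of this probe set differed beyond the repeat arrays, and the second probe set ordered the pools otherwise. This r therefore does not show that Tpsb2 had a course unlike that of Mcpt1. The genes most like Kit among 915 candidates were Timm13 (0.959), Igfbp3 (0.946), Calb2 (0.933), Nbl1 (0.9304) and Ipo4 (0.924), each highest in Saline-w6. Kit had r = -0.497 with Mcpt1, -0.576 with Mcpt2 and -0.413 with Cma2. Over the 6 pools Kit spanned only 137.4 (TNBS-w8) to 214.9 (Saline-w6, averaged), inside the 1.59-fold of the repeat arrays. Its r values and the genes most like it therefore cannot be told from array error, and show no opposite course to the chymases. All r values here are descriptions over 6 points that share scaling and 2 saline pools.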

How the data were processed

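RNA from 6 pools of mouse colon was read on 7 Affymetrix arrays. The deposited values are linear signal intensities per probe set, made by the authors with MAS5 and scaled to 150 as target, per the labels. After trimming 2%, each array's mean was checked and was 150. Of 12488 probe sets, 66 controls were left out, and 10833 had 1 symbol in the platform annotation. A gene with several probe sets was represented by the brightest on the log2 scale, which gave 8251 genes. Signals under 50 were set to 50, both Saline-w6 arrays were averaged on the log2 scale, and 4316 genes with at least 100 in the highest pool were counted. No significance test was made, since each group is 1 pool, and the small number of arrays limits the precision.

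The 8 genes, the lists and the motifs were chosen with earlier results of these data known. All 8 are named, with the 5 genes most like Mcpt1 and Kit by Pearson r (genes past the filter with a 2-fold range), list genes past 2-fold, and 16 fixed mast cell genes. Krt8, Krt19, Cd53, Pdgfra, Smad4 and the other genes of the chromosome 14 cluster were named outside that rule, after their values were seen. So were Lat, Lat2, Syk, Btk and Cd63, set beside Cd53, and Smad2, Smad3, Smad7, Tgfbr1 and Tgfbr2, set beside Smad4. Promoter windows were aligned with biopython 1.88 (match 1, mismatch -1, gap -2 to open and -0.5 to extend). Python 3.11.15, numpy 2.4.6 and pandas 2.3.3 were used.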

Additional observations from a re-analysis of the deposited data

Results flagged for a closer look

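Of the 5 genes past the filter, 4 stood above saline in 1 comparison and below it in another, both by more than 0.29 on the log2 scale, the SD between both Saline-w6 arrays over all genes. The share of all 4316 genes with such a pair of differences was not counted, so nothing is read from the 4 of 5. Each side is a single pool, and the difference between comparisons was not tested. Mcpt1 had a log2 difference of 3.69 in TNBS-w8 and -0.56 in TNBS-w12, both against Saline-w10, which are 4.26 apart. Mcpt2 had 4.00 in TNBS-w6 against Saline-w6 and -0.53 in TNBS-w12 against Saline-w10, which are 4.53 apart. Cma2 had 2.27 in TNBS-w8 and -0.84 in TNBS-w12, both against Saline-w10, which are 3.11 apart. Tpsb2 had 0.56 in TNBS-w6 and -1.07 in TNBS-w12, 1.63 apart, and its second probe set stood at -0.04 and 0.02. The TNBS-w12 values of Mcpt1, Mcpt2 and Cma2 lay inside the spread of the repeat arrays.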

How the results depend on the processing

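Each result has 1 pool on a side, week 12 has no control of its own age, and TNBS is set against saline without ethanol. The 12 single values at least 2-fold as reported kept their direction in all 104 alternative values, and 96 of these were at least 2-fold. The count of the 8 genes at least 2-fold higher in TNBS-w6 was 3 to 4 when either Saline-w6 array was left out (Tpsb2 joined without replicate 2), and 5 without floor and filter, an alternative chosen after seeing the data, which added Cpa3 and Mcpt4. The count lower in TNBS-w8 was then 1 (Mcpt4). The count lower in TNBS-w12 was 3 with a floor of 25, without a floor, and without floor and filter. It was 2 (Mcpt1 and Cma2, without Tpsb2) with the other saline pool or the mean of both, and 0 with a floor of 100, log2(value + 50) or the mean of a gene's probe sets. The count higher in TNBS-w10 was 2, without Cma2, with log2(value + 50) (Cma2 at 0.84), the other saline pool (0.36, with Mcpt1 at 1.09) or the mean of both (0.75). Of the mast cell lists, the count in TNBS-w6 was 1 (Ctsc) with a floor of 100 or log2(value + 50), and 0 when a gene's probe sets were averaged. The count in TNBS-w8 was 0 in those 3 settings and 1 with equal array medians, quantile normalization, the other saline pool or the mean of both. In TNBS-w10 it was 1 (Smad4) with equal medians, which moved the median of all genes to 0.11 in TNBS-w8 and 0.13 in TNBS-w10. Of the 5 genes most like Mcpt1, 4 were shared with log2(value + 50) and 3 with a floor of 25 or 100, no floor, equal medians, quantile normalization, or without replicate 1 or without replicate 2 of Saline-w6, and Cma2 and Mcpt2 were among them in each. Because Cma2 and Mcpt2 were chosen with Mcpt1 for this pattern, their return in each setting is no support. No paired analysis was possible because each group is a single pool. Signals under 50 limit what can be said of Mcpt4, Cma1, Cpa3 and the IgE receptor.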
